A study of Mus musculus with 12 samples.

Results

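The caveolin family of the mouse has 3 genes, Cav1, Cav2 and Cav3, and their transcripts were followed here in the embryonic heart. Members were found by symbol in the platform's probe annotation, which gave 4 probes, 1 each for Cav1 and Cav3 and 2 for Cav2, of 45281 probes in all. Each gene was read from its probe with the highest 12-array mean, so the family makes up 3 of the 19057 genes tested. The members were chosen by symbol, but the family was selected on measured values, the AVC against LV intensities of Cav1. The study profiled dissected pieces of mouse embryos on Illumina bead arrays of the Mouse WG-6 v2 design, with 3 arrays in each of 4 groups. The groups were the atrioventricular canal (AVC) at embryonic day 10 (AVC E10), the primary ventricle at the same age (LV E10), the AVC at embryonic day 9 (AVC E9) and the primary ventricle at that age (LV E9). No strain, genotype or treatment was named for any group. The AVC is the segment between atrium and ventricle in which the endocardial cushions, the forerunners of the valves, arise, and both dissected pieces hold muscle, endocardium and other cells together. In such bulk samples fewer cells of a type and less RNA per cell cannot be told apart.

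Caveolins are hairpin proteins of the inner leaflet of the plasma membrane. Together with the cavins they shape caveolae, the flask-like pits that buffer membrane tension and gather signalling receptors. Caveolin-1 is required for caveolae in most cell types and is abundant in endothelium, smooth muscle and fibroblasts. Caveolin-2 joins caveolin-1 in mixed oligomers and depends on it to reach the cell surface. Caveolin-3 is the muscle form and lines the sarcolemma and T-tubules of mature muscle, where mutations in its human gene cause muscle and heart rhythm disorders.

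All 3 genes lie on the plus strand of mouse chromosome 6, Cav2 and Cav1 side by side and Cav3 far from them. The 250 bases upstream of their transcription starts are shown because they let the neighbours Cav1, above background on all 12 arrays, and Cav2, above it on 2, be set side by side. They come from RefSeq promoter windows on build GRCm38.p6 and cover chr6:17306085-17306334 for the first start of Cav1, chr6:17280935-17281184 for Cav2 and chr6:112459255-112459504 for Cav3. Capitals mark matches, on either strand, to an E-box (CANNTG), a T-box motif (AGGTGT), an NK homeobox core (AAGTG), a GC box (GGGCGG) or a TATA box (TATAAA).
Cav1: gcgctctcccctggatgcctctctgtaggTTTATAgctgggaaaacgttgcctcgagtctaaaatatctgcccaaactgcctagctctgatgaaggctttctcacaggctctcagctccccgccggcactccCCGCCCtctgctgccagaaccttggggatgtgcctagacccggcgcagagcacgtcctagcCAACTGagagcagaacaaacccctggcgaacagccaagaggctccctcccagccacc
Cav2: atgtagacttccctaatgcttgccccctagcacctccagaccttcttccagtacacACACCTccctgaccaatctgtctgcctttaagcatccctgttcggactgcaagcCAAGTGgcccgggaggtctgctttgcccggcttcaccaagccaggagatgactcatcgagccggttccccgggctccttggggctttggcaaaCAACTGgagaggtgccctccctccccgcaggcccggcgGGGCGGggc
Cav3: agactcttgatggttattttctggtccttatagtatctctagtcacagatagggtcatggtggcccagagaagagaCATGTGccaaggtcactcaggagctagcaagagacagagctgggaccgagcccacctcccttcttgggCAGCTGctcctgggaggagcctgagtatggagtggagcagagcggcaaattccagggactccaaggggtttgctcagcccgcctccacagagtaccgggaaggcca

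The Cav1 window held 1 E-box match at position -57 from the start, 1 GC box at -118 and 1 TATA box match at -221, where positions give the first base of the match. Its second annotated start, on chr6:17307390-17307639, had 1 E-box match at -158 and none of the other motifs. The Cav2 window held E-box matches at -140 and -47, a T-box motif at -194, an NK homeobox core at -139 that overlapped the first E-box by 5 bases, and a GC box at -9. The Cav3 window held E-box matches at -174 and -106 and no other match. A GATA motif (AGATAA), the SRF CArG box and the MEF2 motif were searched as well and had no match in any of these windows. Of 32851 RefSeq promoter windows of the same length, 66.2% held an E-box match, 11.8% a T-box motif, 40.7% an NK homeobox core, 32.7% a GC box, 12.4% a TATA box match and 9.99% the GATA motif. The SRF and MEF2 motifs were rare, at 1.47% and 0.508%. The GC content was 59.6% for Cav1, 62% for Cav2 and 56% for Cav3, against a median of 52.4% over all windows. These matches are letters in a window and not evidence of binding.

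Intensities had been scaled so that every array had the same mean of 386. Values ran below 0 after background subtraction, so the size of the most negative value on an array, 22.4 to 29.6, was taken as its background limit. The 2 tissues differed in part of their markers. AVC myocardium genes called higher in the AVC than in the LV numbered 4 of 5 at E10 (Bmp2, Rspo3, Tbx2 and Tbx3) and 3 of 5 at E9. The shares of all genes were 2.06% and 0.855%. Msx2 was above background on no array. Of 7 chamber myocardium genes measured, 2 were called lower in the AVC at E10 (Nppa and Nppb) and 2 at E9 (Irx2 and Nppa). Of all genes, 0.241% and 0.168% were called lower. The study itself names Rspo3, Tbx2 and Tbx3 as AVC genes and Nppa and Irx2 as chamber genes from its arrays. The counts of both lists are therefore a description. Gja5, another chamber gene, had a log2 difference of 0.19 at E9. Replicate 1 of LV E10 stood apart: its mean correlation with its own group was 0.933 across 8340 genes, and its closest array was replicate 2 of LV E9, at 0.969. Results that rest on LV E10 are therefore also given without that array. Without it, 2630 of 19057 genes were called for age in the LV, against 452 with all arrays. A call gained in that setting is therefore shared with many genes.

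Cav1 was the only caveolin gene above background on all 12 arrays, and it was higher in the AVC than in the LV on every array. At E9 it read 2698.5, 2883 and 2251 in the AVC, against 169.8, 123 and 134 in the LV. The lowest AVC array was 13.2 times the highest LV array. The means were 2611 ± 325 in AVC E9 and 142 ± 24.5 in LV E9 (SD, n = 3 each), a difference of 4.20 ± 0.32 (SE) on the log2 scale, or 18.4-fold. Among 8706 genes above background on all 6 arrays this was the highest difference. That filter leaves out genes not above background in the LV, and over all 19057 genes Cav1 ranked 25. The family was taken up with the height of Cav1 in the AVC known, and the study lists Cav1 among AVC genes drawn from these arrays, so the AVC against LV values of Cav1 are a description without a test. Over all genes, 1.02% were called between the tissues at E9 (limma, adjusted p under 0.05), 0.855% higher and 0.168% lower in the AVC, and arrays did not overlap for 11.8% as higher and 5.31% as lower. At E10, 2.3% were called, 2.06% higher and 0.241% lower, and arrays did not overlap for 15.8%, 13.1% as higher and 2.68% as lower.

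At E10 Cav1 read 3631, 4292 and 3519 in the AVC, against 319, 798 and 722 in the LV. The groups again did not overlap, and the lowest AVC array was 4.41 times the highest LV array. The means were 3814 ± 417 in AVC E10 and 613 ± 257 in LV E10 (SD, n = 3 each). The difference was 2.74 ± 0.32 (SE, log2 scale), or 6.68-fold. It ranked 16 among 8682 genes above background on all 6 arrays and 199 over all 19057 genes. Replicate 1 of LV E10 was the low array of its group, and without it the LV E10 mean was 760 ± 53.5 (SD, n = 2) and the difference 2.32.

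**Figure D1:**
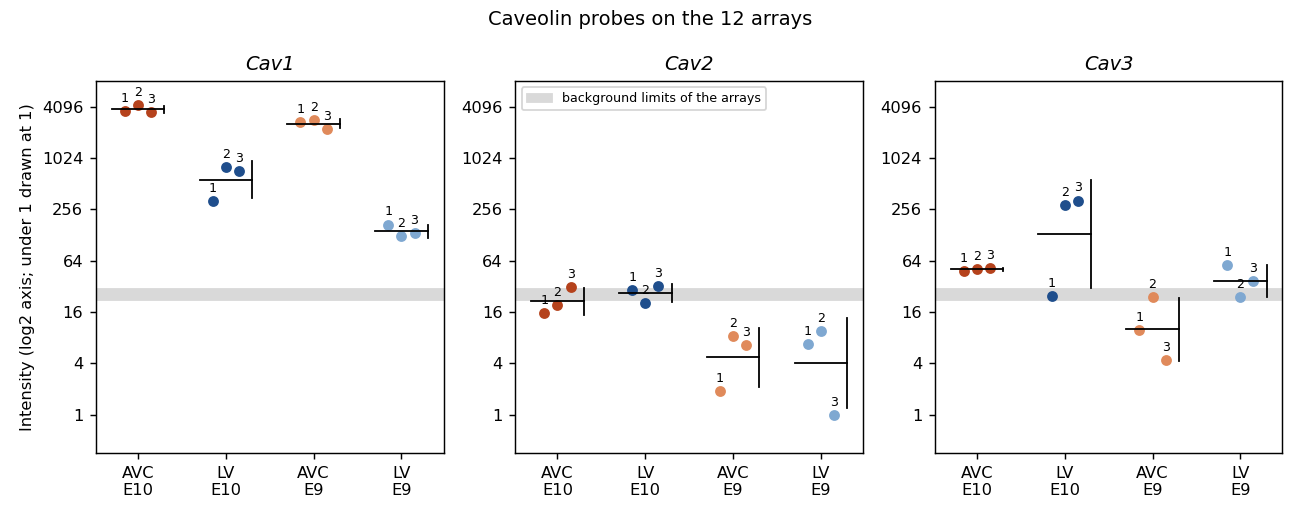
Intensity of the chosen probe of Cav1, Cav2 and Cav3 on each of the 12 arrays (log2 axis, values under 1 drawn at 1), with replicate numbers, in AVC E10, LV E10, AVC E9 and LV E9. Horizontal lines are means and vertical lines ± 1 SD of the log2 values (n = 3), and the grey band spans the arrays' background limits of 22.4 to 29.6. All AVC arrays of Cav1 lie above all its LV arrays, while Cav2 stays within or below the band except for 2 arrays just above it. Levels of different probes are not comparable.

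The comparison of ages asked how the caveolin genes changed from E9 on. In the LV, Cav1 rose at E10: the LV E10 arrays at 319, 798 and 722 lay above the LV E9 arrays at 169.8, 123 and 134, with the lowest E10 array 1.88 times the highest E9 array. The difference was 2.01 ± 0.32 (SE, log2 scale), or 4.04-fold (limma with Benjamini-Hochberg adjustment over all genes, adjusted p = 0.0267, 95% interval of the log2 difference 1.29 to 2.74). Of all genes, 2.37% were called in this comparison, 1.37% as higher and 1% as lower, and arrays did not overlap for 8.05% as higher and 12.3% as lower. All 6 LV arrays of this test also entered the AVC against LV values for which Cav1 was taken up. Its p-value is therefore not free of that choice. The call held in 6 of 12 fits that each left out 1 array. It was lost without any 1 of replicates 1, 2 and 3 of LV E9, replicate 3 of AVC E10 or replicates 2 and 3 of LV E10 (adjusted p up to 0.0979). Over these 12 fits the difference ran from 1.77 to 2.43, the highest without replicate 1 of LV E10. A fit on the 6 LV arrays alone also lost the call (adjusted p = 0.143).

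In the AVC, Cav1 read 3631, 4292 and 3519 at E10, against 2698.5, 2883 and 2251 at E9. The arrays of the ages did not overlap, as for 16.2% of all genes in this comparison, 10.2% as higher and 5.96% as lower at E10. The difference of 0.55 ± 0.32 (SE, log2 scale), or 1.46-fold, did not pass the test (limma, adjusted p = 0.579), and its 95% interval ran from -0.18 to 1.28. Of all genes, 0.551% were called, 0.43% as higher and 0.121% as lower. These AVC arrays too entered the AVC against LV values for which Cav1 was taken up. The order of Cav1 levels over the groups was thus AVC E10, AVC E9, LV E10 and LV E9, with no overlap between neighbours in that order.

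The tissue by age interaction of Cav1, its AVC against LV difference at E10 minus that at E9, was -1.46 ± 0.45 (SE, log2 scale). It is built from the AVC against LV values that led to the choice of Cav1, so it too is a description without a test. The value without replicate 1 of LV E10 was -1.88 ± 0.22 (SE).

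**Figure D2:**
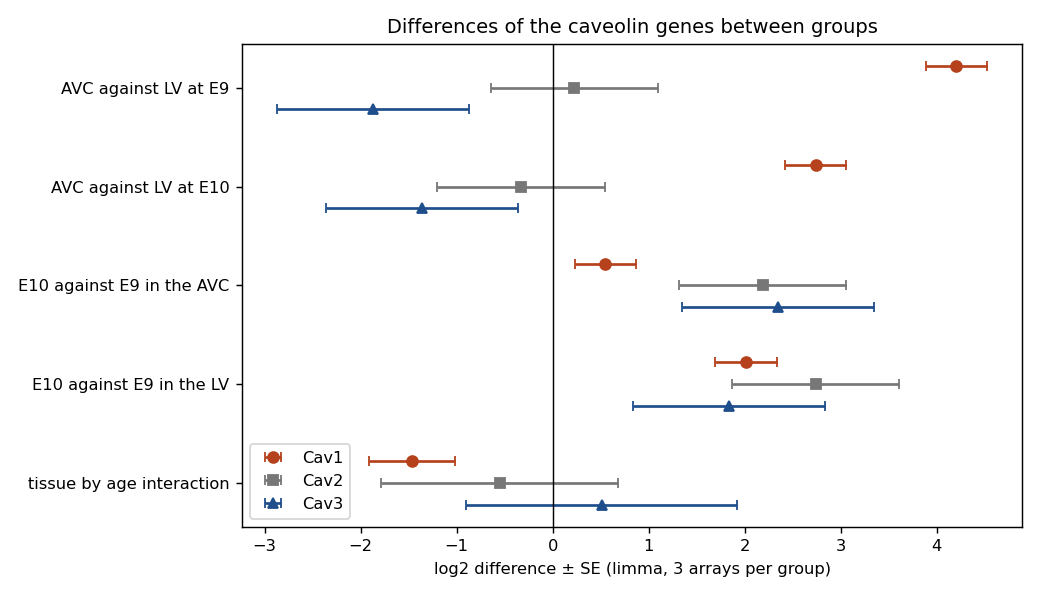
Log2 differences of Cav1, Cav2 and Cav3 (x axis) in the comparisons named on the y axis, as points with SE from the limma fit over all 12 arrays. Cav1 lies at 4.20 and 2.74 for AVC against LV at E9 and E10. Of the plotted differences that were tested, only that of Cav1 for E10 against E9 in the LV passed, on arrays that also entered the choice of Cav1.

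Markers of several cell types moved with Cav1 between the tissues. Cushion mesenchyme genes called higher in the AVC numbered 5 of 10 at E10 (Has2, Msx1, Pdgfra, Snai1 and Twist1) and 4 of 10 at E9 (the same without Has2), against 2.06% and 0.855% of all genes. Their summed intensity was 8128 to 9185 in AVC E10, against 1370 to 2498 in LV E10, and 5633 to 7553 in AVC E9, against 1825 to 2247 in LV E9. The study itself names Twist and Msx as enriched in the AVC on its arrays, so the counts of this list are a description. Atrium and sinus venosus markers summed to 1849 to 3045 in AVC E10, against 285 to 369 in LV E10, and to 1699 to 1767 in AVC E9, against 296 to 412 in LV E9. Of these markers, 2 of 7 were called higher in the AVC at E10 (Shox2 and Stard10) and 3 of 7 at E9 (Kcna5, Nr2f2 and Stard10), against the same shares of all genes, while Hcn4 was above background on no array. Over the 12 arrays the log2 intensity of Cav1 had a correlation of 0.87 with the mean log2 intensity of the cushion mesenchyme markers, 0.85 with the atrium and sinus venosus markers, 0.82 with the AVC myocardium markers and -0.79 with the chamber myocardium markers. These points share the 4 groups, so the values describe the groups as much as single arrays, and the part of any of these cell types in the Cav1 level was not tested.

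Endothelial markers, from a cell type known for caveolin-1, were not called higher in the AVC with Cav1, apart from 1 gene. Their summed intensity was 8540 to 12017 in AVC E10, against 9373 to 11290 in LV E10, and 6240 to 7077 in AVC E9, against 7471 to 9354 in LV E9. At E10, 1 of 11 was called higher in the AVC (Nfatc1), and at E9 0 of 11 were called (limma), against 2.06% of all genes called higher at E10 and 1.02% called at E9. At an unadjusted p under 0.05 there were 6 at E9, 3 higher in the AVC (Nfatc1, Pecam1 and Tek) and 3 lower (Egfl7, Emcn and Esam), and 11.5% of all genes passed that limit. At E10 there were 5, 3 higher and 2 lower, against 13.9% of all genes. Kdr was above background on no array. The correlation of the endothelial markers with Cav1 over the 12 arrays was 0.29. For smooth muscle markers, from another cell type known for caveolin-1, it was 0.41, and for neural crest markers 0.54. Of 4 smooth muscle markers, 0 were called between the tissues at either age, against 2.3% of all genes at E10 and 1.02% at E9.

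For age in the LV, where Cav1 rose, the endothelial markers summed to 9373 to 11290 in LV E10, against 7471 to 9354 in LV E9, and 1 of 11 was called higher (Pecam1, a junction protein of endothelium), against 1.37% of all genes. The epicardium and mesothelium markers summed to 3422 to 7495 in LV E10, against 616 to 1342 in LV E9. Of 9 measured, 3 were called higher at E10 in the LV (Gpm6a, Tcf21 and Upk3b) and 1 in the AVC (Upk1b), against 1.37% and 0.43% of all genes, and Msln was above background on no array. The lowest epicardial sum of LV E10, 3422, belonged to replicate 1, the array with the lowest Cav1 of that group. That array also had the lowest endothelial sum and the highest chamber myocardium sum of LV E10. By mean log2 intensity, which bright genes weigh less, both placings turned. It was then the highest of LV E10 for endothelium (8.65, against 8.57 and 8.56) and the lowest for chamber myocardium (11.03, against 11.62 and 11.61). In the AVC, where the age difference of Cav1 did not pass, the epicardial sums were 5639 to 5982 at E10, against 937 to 1379 at E9. The correlation of Cav1 with the epicardial markers over the 12 arrays was 0.35. The part of these cells in the rise of Cav1 was not tested.

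Cav3, the muscle caveolin, was above background on 8 of 12 arrays, and well above it on 2 arrays of LV E10. At E10 it read 48.9, 51.2 and 53.0 in the AVC, against 24.3, 285 and 325 in the LV. Replicates 2 and 3 of LV E10 were the brightest arrays of this probe, and replicate 1 was not above background. The means were 51.0 ± 2.07 in AVC E10 and 211 ± 163 in LV E10 (SD, n = 3 each), and without replicate 1 of LV E10 that group's mean was 305 ± 28.3 (SD, n = 2). With all arrays the difference was -1.36 ± 0.999 (SE, log2 scale) and did not pass (limma, adjusted p = 0.623, 95% interval -3.64 to 0.92), and without that array it was -2.58 (adjusted p = 0.0801). In this comparison 2.3% of all genes were called.

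At E9 Cav3 read 9.76, 23.8 and 4.35 in the AVC, against 56.4, 24.0 and 36.4 in the LV. Only replicate 2 of AVC E9 and replicates 1 and 3 of LV E9 were above background. The groups did not overlap, by a margin of 23.8 against 24.0, as was the case for 17.1% of all genes. The difference of -1.87 ± 0.999 (SE, log2 scale) did not pass (limma, adjusted p = 0.577, 95% interval -4.15 to 0.41), in a comparison in which 1.02% of genes were called.

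Between ages, the Cav3 arrays of AVC E10 at 48.9 to 53.0 lay above those of AVC E9 at 4.35 to 23.8, with the lowest E10 array 2.05 times the highest E9 array. Arrays did not overlap in this direction for 10.2% of all genes. The log2 difference of 2.35 ± 0.999 (SE) did not pass (limma, adjusted p = 0.381). In the LV the ages overlapped through replicate 1 of LV E10, at 24.3 against 24.0 to 56.4 in LV E9, and the difference was 1.84 ± 0.999 (SE, adjusted p = 0.375). Without that array it was 3.05 ± 0.65 (SE) with an adjusted p of 0.0243, in a setting with 2630 of 19057 genes called. The tissue by age interaction was 0.51 ± 1.41 (SE, adjusted p = 1), in a contrast in which 0.0315% of genes were called, 0.021% as higher and 0.0105% as lower. Its sign turned with a floor of 16 under dim values (-0.36), with an offset of 50 (-0.56) and without replicate 1 of LV E10 (-0.71).

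The order of the Cav3 means was LV E10, AVC E10, LV E9 and AVC E9, in which LV E10 overlapped both of the next groups, AVC E10 and LV E9 overlapped each other, and LV E9 and AVC E9 did not. Chamber myocardium markers, 7 measured, summed to 40235 to 41657 in AVC E10, against 68690 to 76587 in LV E10, and to 30345 to 42196 in AVC E9, against 67149 to 75078 in LV E9. The correlation of Cav3 over the 12 arrays was 0.59 with these markers and 0.65 with the epicardium and mesothelium markers. It was -0.76 with general cardiomyocyte markers (Actc1, Myh6, Myl7, Myl4 and Ttn) and -0.73 with endoderm epithelium markers. With its partners of the muscle membrane, listed below, it was 0.24. All these points share the 4 groups. Skeletal muscle markers, from a tissue in which caveolin-3 is abundant later, were above background on no array for 4 of 5 genes (Myod1, Myf5, Pax3 and Pax7). The other, Myog, was above it on 7 of 12 arrays, at 33.4, 11.3 and 42.1 in AVC E10, against 8.33, 27.7 and 28.8 in LV E10, and 29.1, 26.5 and 27.5 in AVC E9, against 16.3, 26.7 and 25.0 in LV E9.

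Cav2, the partner of caveolin-1, gave almost no signal. At E10 its chosen probe read 15.7, 19.4 and 31.7 in the AVC, against 28.8, 20.5 and 32.4 in the LV. At E9 it read 1.87, 8.44 and 6.48 in the AVC, against 6.76, 9.54 and -4.67 in the LV. Replicate 3 of AVC E10 and replicate 3 of LV E10 were above background and the other 10 arrays were not, so no fold is given. The means were 22.3 ± 8.36 in AVC E10, 27.3 ± 6.12 in LV E10, 5.60 ± 3.37 in AVC E9 and 3.88 ± 7.53 in LV E9 (SD, n = 3 each). The second Cav2 probe lay below 0 on all 12 arrays, at -17.1 to -3.69.

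The AVC and LV arrays of Cav2 overlapped at both ages, with log2 differences of -0.33 ± 0.87 (SE) at E10 and 0.22 ± 0.87 (SE) at E9 (limma, adjusted p = 1 for both). The 95% intervals, -2.32 to 1.66 at E10 and -1.76 to 2.21 at E9, are wide, so a difference of several-fold was not detectable at this signal. The E10 arrays lay above the E9 arrays in both tissues, as for 10.2% of all genes in the AVC and 8.05% in the LV (20.4% in either direction there). The differences were 2.19 ± 0.87 (SE, log2 scale, adjusted p = 0.344) in the AVC and 2.74 ± 0.87 (adjusted p = 0.133) in the LV, and neither passed the test. These values stand on the floor of 1 set under dim signals: after an offset of 50 was added to all values, the LV difference was 0.53 with an adjusted p of 0.0294. It was 2.69 without replicate 1 of LV E10 (adjusted p = 0.14). The interaction was -0.55 ± 1.23 (SE, adjusted p = 1).

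Within the family, the correlation over the 12 arrays was 0.27 between Cav1 and Cav2, -0.15 between Cav1 and Cav3 and 0.50 between Cav2 and Cav3. Cav2 was not above background on 10 of 12 arrays and Cav3 on 4, so all 3 values rest in part on arrays without a clear signal.

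No other gene of the caveola coat and neck was called between the tissues. The list held 11 genes, all measured, of which Dnm2 (the GTPase dynamin-2) and Ror1 (a receptor kinase that sustains caveolae in human lung cancer cells) were above background on no array. Between AVC and LV, 0 of 11 were called in either direction at E10 and 0 of 11 at E9 (limma, adjusted p under 0.05), against 2.3% and 1.02% of all genes. At an unadjusted p under 0.05 there were 2 at E10 (Ehd2 higher and Cavin4 lower in the AVC) and 1 at E9 (Cavin2, lower), against 13.9% and 11.5% of all genes. Their median log2 difference was -0.15 at E10 and 0 at E9, against medians of 0.07 and 0 over all genes. Over the 9931 genes above background in at least 1 group, the medians were 0.18 and 0.08. In the fits that left out single arrays 0 of 11 were called between the tissues.

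Cavin1, the coat protein without which caveolae do not form, read 1752, 1212 and 1626 in AVC E10, against 803, 2139 and 1736 in LV E10. At E9 it read 874, 1148 and 971 in the AVC, against 1205, 868 and 1358 in the LV. The tissues overlapped at both ages, with log2 differences of 0.07 ± 0.35 (SE) at E10 and -0.18 ± 0.35 (SE) at E9 (limma, adjusted p = 1 for both). Without replicate 1 of LV E10, which was the low array, the E10 difference was -0.35 (adjusted p = 0.537). A second Cavin1 probe, above background on 10 of 12 arrays, disagreed, with log2 differences of -1.05 at E10 and -1.84 at E9, so the tissue difference of Cavin1 depends on the probe.

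Cavin3, a partner that binds protein kinase C delta, read 1623, 1715 and 1473 in AVC E10, against 890, 1877 and 1597 in LV E10. At E9 it read 1221, 1363 and 1030.2 in the AVC, against 1062, 955 and 830.1 in the LV. Replicate 1 of LV E10 was again the lowest of its group. The log2 differences were 0.21 ± 0.25 (SE) at E10 and 0.34 ± 0.25 (SE) at E9 (limma, adjusted p = 0.844 and 0.707), and without that array the E10 difference was -0.11.

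Cavin2, which promotes membrane curvature, read 1248, 1518 and 1646 in AVC E10, against 683, 519 and 423 in AVC E9, and 1499.6, 2321 and 2859 in LV E10, against 1062, 1018 and 735 in LV E9. The ages did not overlap in either tissue, as for 10.2% of all genes as higher in the AVC and 8.05% in the LV. The log2 difference was 1.46 ± 0.27 (SE; limma, adjusted p = 0.0671) for the AVC and 1.22 ± 0.27 (SE, adjusted p = 0.059) for the LV, both short of the threshold. Without replicate 1 of LV E10 they were 1.46 (adjusted p = 0.0368) and 1.48 (adjusted p = 0.0114), and Cavin3 was also called in the LV, at 0.87 (adjusted p = 0.0123). In that setting 2630 of 19057 genes were called for age in the LV.

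Cavin4, the cavin of striated muscle, was dim, at 28.2, 11.1 and 18.8 in AVC E10, against 25.3, 57.2 and 54.4 in LV E10, and 52.1, 34.2 and 45.3 in AVC E9, against 45.3, 22.8 and 57.5 in LV E9. Replicates 1 of AVC E10 and 2 and 3 of LV E10 were the arrays above background at E10. Its log2 difference was -1.25 ± 0.48 (SE) for AVC against LV at E10, where the tissues overlapped, and did not pass (limma, adjusted p = 0.277), nor did it without replicate 1 of LV E10 (-1.63, adjusted p = 0.12).

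Ehd2, an ATPase that stabilises the caveola neck, was the only coat or neck gene called with age over all 12 arrays. It read 114, 122 and 139 in AVC E10, against 61.0, 55.8 and 47.1 in AVC E9, a log2 difference of 1.20 ± 0.12 (SE; limma, adjusted p = 0.00898), and this call held without any single array. In the LV it read 88.8, 80.6 and 97.2 at E10, against 52.8, 43.1 and 46.0 at E9, a difference of 0.91 ± 0.12 (SE, adjusted p = 0.0182). That call was lost without replicate 2 or 3 of LV E9 or replicate 3 of LV E10 (adjusted p up to 0.0664) and held without replicate 1 of LV E10 (0.91, adjusted p = 0.0106). A second Ehd2 probe, above background on all 12 arrays, had differences of 0.79 in the AVC and 0.69 in the LV. Ehd2 was thus 1 of 11 in each age comparison, against 0.43% of all genes called higher in the AVC and 1.37% in the LV. At an unadjusted p under 0.05 there were 4 of 11 in the AVC (3 higher and 1 lower at E10), against 12.5% of all genes. In the LV there were 2, both higher, against 19.6%.

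**Figure D3:**
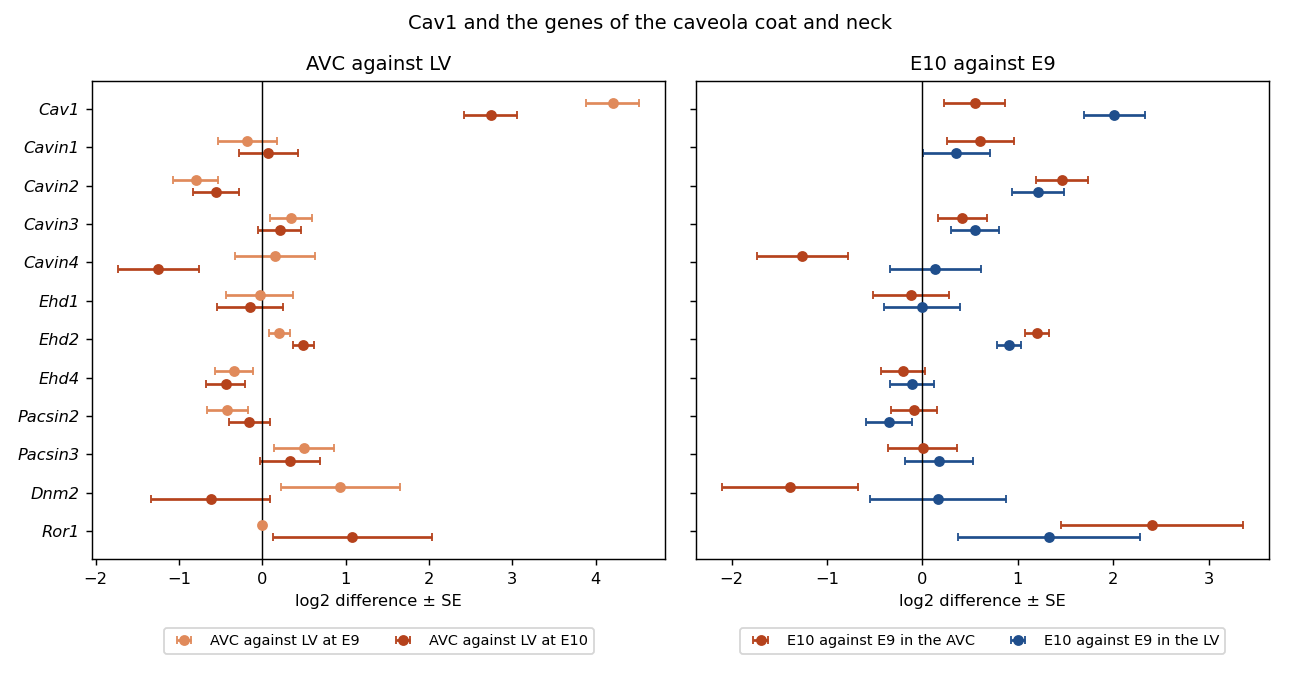
Log2 differences ± SE (limma, 12 arrays) of Cav1 and the 11 genes of the caveola coat and neck, for AVC against LV at each age (left) and for E10 against E9 in each tissue (right). Cav1 stands at 4.20 and 2.74 on the left, where 0 of the 11 other genes were called. On the right Ehd2 was called in both tissues, and Dnm2 and Ror1 were above background on no array.

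Flotillins and related proteins mark membrane rafts outside caveolae. All 5 genes of that list (Flot1, Flot2, Stom, Erlin1 and Erlin2) were measured and 0 were called in any of the comparisons (limma, adjusted p under 0.05), in which 0.0315% to 2.37% of all genes were called. At an unadjusted p under 0.05 there were 2 for AVC against LV at E10 (Erlin1 and Erlin2, higher), against 13.9% of all genes, and 1 for age in the LV (Erlin2, lower), against 19.6%. Erlin2 was called lower at E10 in the LV without replicate 2 of AVC E9 (-0.61, adjusted p = 0.0322). Their median log2 difference for AVC against LV was 0.11 at E10 and 0.14 at E9.

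Receptors and enzymes known to bind caveolin-1 numbered 13, all measured, and Fyn and Kdr were above background on no array. Only Tgfbr1, the type I receptor for TGF-beta and a driver of endocardial transition to mesenchyme, was called over all 12 arrays. It read 2950, 2763 and 2913 in AVC E10, against 1791, 1629 and 1783 in LV E10, so the groups did not overlap, as for 13.1% of all genes as higher. The log2 difference was 0.73 ± 0.12 (SE), or 1.66-fold (limma, adjusted p = 0.0237). The call was lost without any 1 of the 3 arrays of AVC E10 or of replicates 2 and 3 of LV E10 (adjusted p up to 0.0967) and held without replicate 1 of LV E10 (0.75, adjusted p = 0.0321). A second Tgfbr1 probe above background on all 12 arrays had a difference of 0.87 at E10. At E9 Tgfbr1 read 3044, 2219 and 2352 in the AVC, against 2437, 1986 and 2114 in the LV, a difference of 0.21 (adjusted p = 0.614). Another 3 were called without replicate 1 of LV E10: Src, a tyrosine kinase that phosphorylates caveolin-1, higher in the AVC at E10 (0.85, adjusted p = 0.0399), Gnai2 higher at E10 in the LV (0.70, adjusted p = 0.0184) and Ptch1 lower at E10 in the LV (-1.77, adjusted p = 0.0101). Src was also called without replicate 3 of LV E10 (1.35, adjusted p = 0.0442). For age in the LV, 2630 of 19057 genes were called without replicate 1 of LV E10. Over all 12 arrays Tgfbr1 was thus 1 of 13 called higher in the AVC at E10, against 2.06% of all genes. At an unadjusted p under 0.05 there were 5 of 13 at E10 (4 higher and 1 lower in the AVC), against 13.9% of all genes, and 1 at E9, against 11.5%. With age there were 5 in the AVC, against 12.5%, and 3 in the LV, against 19.6%. The median log2 difference of the 13 genes for AVC against LV was 0.52 at E10 and 0.07 at E9, against 0.07 and 0 over all genes. Over the 9931 genes above background in at least 1 group, the medians were 0.18 and 0.08.

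Of 13 partners of caveolin-3 in the muscle membrane, 11 were measured, and the probe of Dmd, the dystrophin gene, was above background on no array. Their median log2 difference for AVC against LV was -0.18 at E10 and -0.14 at E9. Of the 11, 1 was called higher in the AVC at E9, against 0.855% of all genes, and 1 higher with age in the LV, against 1.37%. At an unadjusted p under 0.05 there were 2 between the tissues at E10 and 2 at E9, against 13.9% and 11.5% of all genes. Bin1, which encodes the membrane-bending protein amphiphysin-2 of T-tubules, was the member called with all arrays. It read 189, 197 and 182 in AVC E9, against 104, 110.5 and 97.9 in LV E9, a log2 difference of 0.86 ± 0.13 (SE; limma, adjusted p = 0.0249). Leaving out any 1 of these 6 arrays lost that call (adjusted p up to 0.0865). In LV E10 it read 207, 227 and 183, above the LV E9 arrays, a difference of 0.98 ± 0.13 (SE, adjusted p = 0.0161), which was lost without replicate 3 of LV E9 or replicate 2 of LV E10 (adjusted p up to 0.0667). At E10 the difference between AVC and LV was 0.41 (adjusted p = 0.172), with 221, 312 and 292 in AVC E10, and without replicate 1 of AVC E10 it was called (0.56, adjusted p = 0.0338), as was the age difference in the AVC (0.67, adjusted p = 0.0146). The LV age difference without replicate 1 of LV E10 was 0.97 (adjusted p = 0.00991). The 2 other Bin1 probes were above background on 1 array and on none. The other partners, among them the sarcoglycans Sgca and Sgcb, dysferlin (Dysf) and junctophilin-2 (Jph2), were not called in any comparison over all 12 arrays. When replicate 1 of LV E10 was left out, Sgca was lower in the AVC at E10 (-1.70, adjusted p = 0.0159) and Sgcb higher at E10 in the LV (0.69, adjusted p = 0.0183). The LV age comparison then had 2630 of 19057 genes called.

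Among 9931 genes that passed the background limit throughout 1 or more groups, 8 were ranked as most like Cav1 by Pearson's r of log2 intensity over the 12 arrays. They were Rtl3 (0.985), Id2 (0.980), Mxra8 (0.975), 2610035D17Rik (0.969), Il13ra1 (0.968), Rsph9 (0.962), Inha (0.961) and Pwwp2b (0.961). They were picked for this pattern, so their values are a description. Id2, an inhibitor of basic helix-loop-helix factors, read 3944, 3660 and 3847 in AVC E10, against 1404, 1612 and 2032 in LV E10, and 2919, 3392 and 2847 in AVC E9, against 1233, 1054 and 1214 in LV E9. As for Cav1, the order of its groups was AVC E10, AVC E9, LV E10 and LV E9, with a smaller step between the tissues of 1.20 at E10 and 1.39 at E9 on the log2 scale.

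Mxra8, a membrane protein of the immunoglobulin family, read 413, 448 and 396 in AVC E10, against 137, 261 and 254 in LV E10, and 325, 384 and 316 in AVC E9, against 142, 127 and 153 in LV E9. Il13ra1, a chain of the interleukin-13 receptor, read 199, 254 and 232 in AVC E10, against 35.7, 97.6 and 87.2 in LV E10, and 141, 174 and 89.4 in AVC E9, against 34.6, 26.3 and 31.2 in LV E9. In Id2, Mxra8 and Il13ra1, as in Cav1, replicate 1 was the lowest LV E10 array. Rtl3 was not above background on any of the 6 LV arrays, and its LV values lay at or near the floor of 1.

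**Figure D4:**
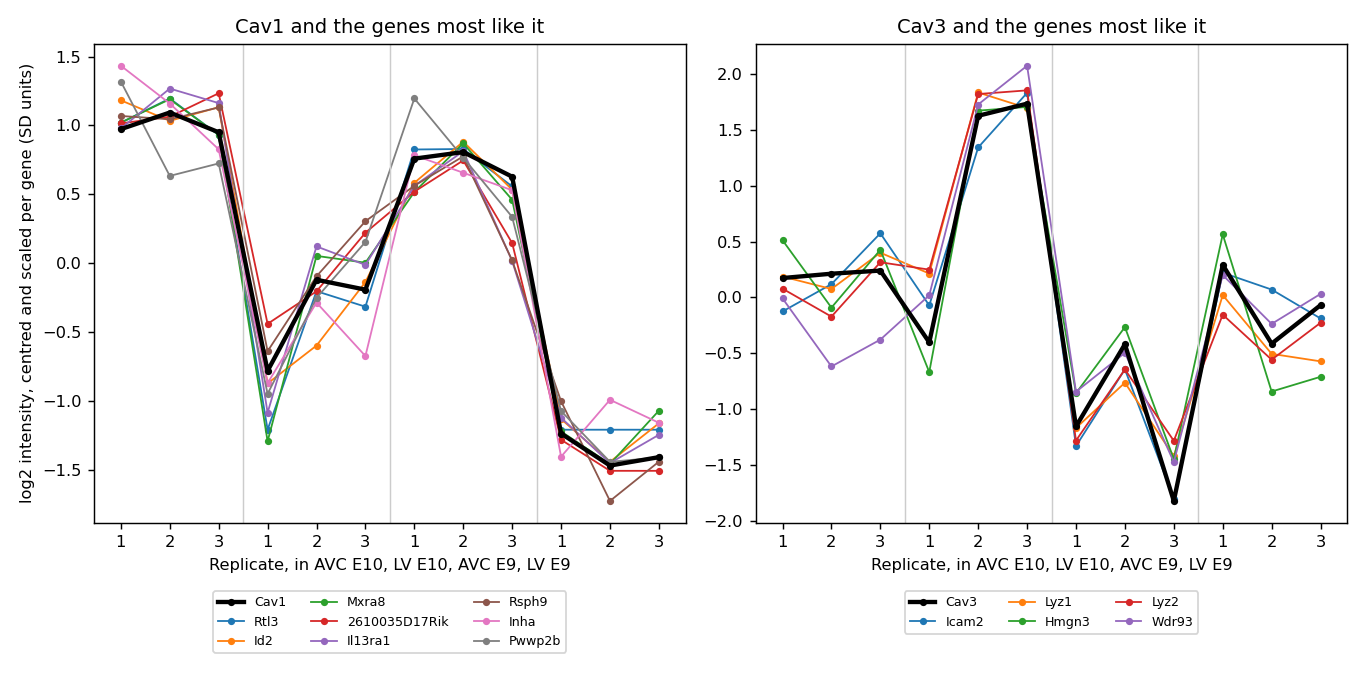
Log2 intensity of Cav1 (left) and Cav3 (right), in black, and of the genes with the highest correlation to each over the 12 arrays, centred and scaled to SD units per gene. The arrays run AVC E10, LV E10, AVC E9 and LV E9, replicates 1 to 3 in each. The genes like Cav1 share its high AVC arrays, while those like Cav3 peak at replicates 2 and 3 of LV E10.

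The genes next to Cav2 and Cav1 on chromosome 6 were read to see whether the AVC height of Cav1 extended along the chromosome. The order of protein-coding genes in RefSeq is Ppp1r3a, Foxp2, Mdfic, Tfec, Tes, Cav2, Cav1, Met, Capza2, St7, Wnt2 and Asz1, and all of the neighbours but Tes were measured. Of these 9, 1 was called higher in the AVC at E10 (Wnt2) and 1 at E9 (St7), against 2.06% and 0.855% of all genes, none was called lower, and 0 were called between ages (limma, adjusted p under 0.05). With single arrays left out, Foxp2 was called higher in the AVC at both ages without replicate 3 of LV E9 (2.72 at E10 and 2.97 at E9, adjusted p = 0.022 and 0.0331). Its probe was above background on only 2 of 12 arrays, both of AVC E10. The E9 value thus compares signals not above background, with the remaining LV E9 arrays at the floor of 1. Mdfic was called higher at E10 in the AVC without replicate 1 of AVC E10 (1.51, adjusted p = 0.0207), and in the AVC (1.32, adjusted p = 0.0469) and the LV (1.09, adjusted p = 0.0342) without replicate 1 of LV E10. Met, next to Cav1 and the receptor for hepatocyte growth factor, was below 0 on all 12 arrays.

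Wnt2, a secreted ligand of the Wnt pathway, read 643, 1250.0 and 1504 in AVC E10, against 331, 98.3 and 121 in LV E10, a log2 difference of 2.76 ± 0.49 (SE; limma, adjusted p = 0.0315). At E9 it read 2546, 3448 and 3346 in the AVC, against 597, 403 and 739 in the LV, a difference of 2.46 ± 0.49 (SE) that fell just short (adjusted p = 0.0662). The tissues did not overlap at either age, as for 13.1% of all genes as higher at E10 and 11.8% at E9. The E10 call was lost in 7 of the 12 fits that left out 1 array, those without replicate 1 or 3 of AVC E9, replicate 1 of LV E9, or replicate 2 or 3 of AVC E10 or of LV E10 (adjusted p up to 0.121). Both tissue differences were called without replicate 1 of LV E10, at 3.29 for E10 (adjusted p = 0.0088) and 2.46 for E9 (adjusted p = 0.0198). Unlike Cav1, whose E10 arrays lay above the E9 arrays, Wnt2 had its highest values at E9 in both tissues, with log2 differences between ages of -1.53 in the AVC (adjusted p = 0.232) and -1.83 in the LV (adjusted p = 0.0907). Without replicate 1 of LV E10 the LV value was -2.37 (adjusted p = 0.0114).

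St7 read 275, 306 and 234 in AVC E9, against 194, 186 and 175 in LV E9, a log2 difference of 0.55 ± 0.10 (SE; limma, adjusted p = 0.0465). That call held in 2 of the 12 fits that left out 1 array, those without replicate 3 of AVC E9 or replicate 1 of LV E10 (adjusted p up to 0.149 in the others). At E10 it read 260.0, 254 and 278 in the AVC, against 227, 237 and 266 in the LV, a difference of 0.12 (adjusted p = 0.681). A second St7 probe above background on all 12 arrays had a difference of 0.20 at E9. Between ages in the LV, St7 was called higher at E10 without replicate 1 of LV E10 (0.44, adjusted p = 0.0388) or replicate 2 of AVC E9 (0.40, adjusted p = 0.0455).

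**Figure D5:**
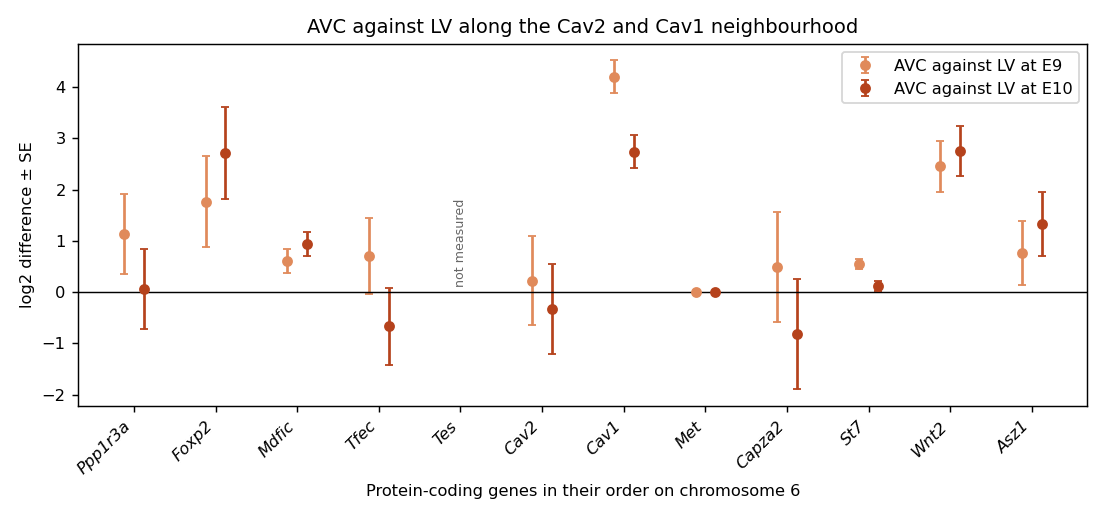
Log2 differences ± SE (limma, 12 arrays) of AVC against LV at E9 and at E10 for Cav2, Cav1 and the nearest protein-coding genes on each side, in chromosomal order. Cav1 stands at 4.20 and 2.74 and Wnt2 at 2.46 and 2.76, while of the direct neighbours of Cav1, Cav2 was above background on 2 arrays and Met on none.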

How the data were processed

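Total RNA of dissected AVC and primary ventricle was labelled as biotinylated cRNA and hybridised to bead arrays, 12 in all. The values deposited by the authors are intensity values on a linear scale, and from the values themselves they had been background subtracted (34.7% lay below 0) and scaled to the same mean of 386 per array. Which program made them is not given in the sources at hand, and for its own analysis the study used GeneSpring GX. No columns of the authors' own comparisons were in the table.

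GEO's platform annotation named the genes: 34885 probes had 1 symbol, 18 had several and 10378 had none listed, and only probes with 1 symbol gave gene results, the probe with the highest mean standing for its gene. Values under 1 were set to 1 (36.8% of values) before log2. Group means of all probes were fitted with limma 3.58.1 (R 4.3.3, statmod 1.5.0, data.table version 1.17.8) over the 4 groups together, and two-sided p-values were adjusted by Benjamini-Hochberg over 19057 genes within each contrast, with calls at an adjusted p under 0.05. The fit was tested on simulated data. Whether replicates came from separate litters, pools or labellings is not stated, so the p-values cover only variation among these samples, possibly technical, and the number of arrays limits the precision. With 3 against 3 arrays an exact two-sided test of a single gene could not go below 0.10, so none was used.

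The members, lists, contrasts and alternatives were chosen with earlier results of these data known. Named genes were the caveolins, the 4 cavins, members of the lists called in at least 1 contrast, the 8 genes most correlated with Cav1 and the 5 with each of Cav2 and Cav3, and the 5 nearest protein-coding genes on each side. A few others that were not called are named for context. Alternatives were quantile normalization, 75th percentile scaling, a floor of 16, an offset of 50, a background filter, the replicate number as a block, only the 6 arrays compared, and each array left out in turn.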

Additional observations from a re-analysis of the deposited data

How the results depend on the processing

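The AVC against LV differences of Cav1 kept their direction in every setting run. With an offset of 50 added before log2 the E9 difference was 3.79, and with single arrays left out the differences ran from 2.32 to 2.98 at E10 and from 4.11 to 4.34 at E9. For Cav1 in the LV between ages, a fit on the 6 arrays compared gave 2.01 with an adjusted p of 0.143, and with single arrays left out it ran from 1.77 to 2.43. Its interaction then ran from -1.88 to -1.22. For Cav2 the offset of 50 gave 0.53 in the LV between ages (adjusted p = 0.0294), and with single arrays left out its AVC against LV difference at E9 ran from -0.78 to 0.88 and its interaction from -1.21 to 0.45. For Cav3 with single arrays left out, the LV age difference ran from 1.18 to 3.05 and the interaction from -0.71 to 1.16, and the interaction was -0.36 with a floor of 16 and -0.56 with the offset. The cause of these shifts was not tested. The signal over background is the limit for Cav2 and Cav3, whose dim values move with the floor.

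The number of genes called depended on the settings, and with it every adjusted p. For AVC against LV at E10, 438 genes were called, with 268 after quantile normalization, 283 after scaling to the 75th percentile, 797 with the offset, 72 on 6 arrays and 97 to 730 with single arrays left out. At E9, 195 were called, with 376 under the offset, 347 among genes above background only, 83 on 6 arrays and 59 to 422 with single arrays left out. For age in the AVC, 105 were called, with 62 after quantile normalization, 182 with a floor of 16, 600 with the offset, 289 among genes above background, 21 on 6 arrays and 25 to 465 with single arrays left out. For age in the LV, 452 were called, with 713 after 75th percentile scaling, 1233 with the offset, 978 among genes above background, 75 on 6 arrays and 54 to 2630 with single arrays left out, the highest of these without replicate 1 of LV E10. For the interaction, 6 were called, with 2 among genes above background and 10 to 43 with single arrays left out. Of the coat and neck genes, 1 was called with age in each tissue, with 2 under the offset, 2 among genes above background, 0 on 6 arrays, and with single arrays left out 1 to 2 in the AVC and 0 to 3 in the LV.

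Replicate numbers were shared by the groups, and same-numbered arrays had correlations of their deviations from -0.32 to 0.28. For AVC against LV at E9 these were 0.23, 0.09 and 0.28, against at best -0.11, 0.001 and -0.04 for arrays of different numbers. At E10 and between ages the same-numbered value was not the higher one throughout. Whether same-numbered samples came from the same embryos is not given in the labels and was not tested. With the replicate number as a block, 66 genes were called for age in the AVC, 794 for age in the LV and 3 for the interaction, and no call of a caveolin gene changed. The other Cav2 probe was not run as an alternative because it lay at the floor on every array, and Cav2 was not among the genes of the above-background setting.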

Other observations

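Near Cav3 on chromosome 6, 9 of the 10 nearest protein-coding genes were measured and 1 was called, as higher with age in both tissues. Of all genes, 0.43% were called higher with age in the AVC and 1.37% in the LV. Lmcd1, which encodes a LIM domain cofactor that restrains GATA6, read 298, 684 and 724 in AVC E10, against 48.4, 77.1 and 37.6 in AVC E9, and 134, 487 and 414 in LV E10, against 62.0, 37.5 and 37.7 in LV E9. The ages did not overlap in either tissue, as for 10.2% of all genes as higher in the AVC and 8.05% in the LV. The log2 differences were 3.35 ± 0.56 (SE) in the AVC and 2.76 ± 0.56 (SE) in the LV (limma, adjusted p = 0.0489 and 0.0459). In the fits that left out 1 array each, the calls held in 2 of 12 for the AVC and 3 of 12 for the LV (adjusted p up to 0.195 and 0.166). Without replicate 1 of LV E10 the LV difference was 3.34 (adjusted p = 0.00724). Oxtr, the oxytocin receptor gene beside Cav3, was above background on no array. Without replicate 1 of LV E10, Rad18 (-0.62, adjusted p = 0.0386) and Srgap3 (-1.84, adjusted p = 0.0312) were called lower at E10 in the LV, and Srgap3 higher in the AVC at E10 (2.21, adjusted p = 0.0359). The LV age comparison then had 2630 of 19057 genes called. The Srgap3 probe was above background on only 2 of 12 arrays, both of AVC E10, so its LV age value compares signals not above background.

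The 5 genes most like Cav3 over the 12 arrays were Icam2 (r = 0.966), Lyz1 (0.951), Hmgn3 (0.944), Lyz2 (0.944) and Wdr93 (0.924). Lyz1 and Lyz2, the lysozyme genes of phagocytes, are near-identical in sequence and their probes may not be separate. Lyz2 read 278, 224 and 339.7 in AVC E10, against 321, 1229.7 and 1265 in LV E10, and 86.9, 149.7 and 86.7 in AVC E9, against 228, 161 and 214 in LV E9. Icam2, an adhesion molecule of endothelium and blood cells, read 677, 729 and 837 in AVC E10, against 688, 1056 and 1225 in LV E10, and 470.4, 579 and 408 in AVC E9, against 752, 719 and 665 in LV E9. In all of these genes replicates 2 and 3 of LV E10 were the highest arrays, as for Cav3. They were picked for this likeness, which is a description.

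The 5 genes most like Cav2 were Aim2 (r = 0.943), Spire2 (0.903), Pdk2 (0.902), Kcne1l (0.895) and Dcn (0.894). Dcn, which encodes the collagen-binding proteoglycan decorin, read 1365, 3519 and 2244 in AVC E10, against 120.1, 271 and 252 in AVC E9, and 1164, 3076 and 3048 in LV E10, against 317, 143 and 54.9 in LV E9. The Cav2 side of these correlations was below background on 10 of 12 arrays.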
